A study of Mus musculus with 6 samples.

Results

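The MTG corepressor family has 3 members in the mouse, Mtg16 (Cbfa2t3), Mtgr1 (Cbfa2t2) and Mtg8 (Runx1t1), and they were taken by gene symbol from the 24736 symbols of the deposited table. All 3 were among the 15045 genes with a mean of at least 0.1 TPM (TPM is the deposited expression level, scaled for transcript length and to the same total in every library) that were tested. The study compared intestinal crypt epithelium of WT mice with that of mice labelled Mtg16-/-, to ask what the corepressor does in crypts. RNA was sequenced from crypts that cold EDTA had released from the whole length of the gut of 12-week-old males, 3 mice per genotype and 1 library per mouse. The WT mice were untreated. The labels call the mutation a CRISPR-induced knock-out, whereas the methods of the study describe Mtg16-/- mice received from another laboratory, and the sources used here do not settle which applies. Neither source used here names the deleted part of the gene or the strain of either group. WT replicate 1 stood apart, at -47.7 on the first principal component of the 12268 genes with a mean of 1 TPM or more, where the other WT libraries were at -1.90 and -6.30 and the mutant libraries at -0.897, 20.5 and 36.3.

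MTG proteins are nuclear corepressors without sequence-specific DNA binding of their own. They dock onto DNA-bound transcription factors, such as E proteins and other basic helix-loop-helix factors, and bring in NCoR, SIN3 and histone deacetylases, which silence the genes nearby. The members share an oligomerization domain through which they can associate with one another, and a zinc finger of the MYND type near the C terminus that contacts NCoR. Mtg8, also called ETO, is best known from its fusion to RUNX1 in acute myeloid leukaemia, Mtg16, or ETO2, from blood progenitors, and Mtgr1 from the secretory lineage of the small intestine.

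The genes lie on separate chromosomes of GRCm38. Cbfa2t3 spans chr8:122625141-122699109 on the minus strand, Cbfa2t2 spans chr2:154436481-154539356 on the plus strand, and Runx1t1 spans chr4:13743436-13893649 on the plus strand. Their reference transcripts have 12, 11 and 12 exons, and their coding lengths without the stop codon are 1860, 1782 and 1812 bases. Over aligned coding positions, Cbfa2t3 and Runx1t1 were 72.1% identical, Cbfa2t2 and Runx1t1 67.2%, and Cbfa2t3 and Cbfa2t2 66.5%. The longest run shared without a mismatch was 29 bases, between Cbfa2t3 and Runx1t1, against 20 and 19 bases for the other pairs. The stretch encoding the MYND zinc finger is printed because it is where the members are alike, and capitals mark the positions at which the 3 genes are not all the same. It lies in the last exon of each gene, at chr8:122630884-122630973 (minus), chr2:154534887-154534976 (plus) and chr4:13889615-13889704 (plus).
Cbfa2t3: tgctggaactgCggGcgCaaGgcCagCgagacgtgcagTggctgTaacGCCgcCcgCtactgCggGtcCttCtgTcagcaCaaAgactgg
Cbfa2t2: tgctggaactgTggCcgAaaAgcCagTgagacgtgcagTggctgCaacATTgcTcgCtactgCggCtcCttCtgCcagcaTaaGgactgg
Runx1t1: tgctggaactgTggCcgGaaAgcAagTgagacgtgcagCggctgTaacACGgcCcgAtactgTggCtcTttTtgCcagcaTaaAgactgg
Of its 90 bases, 70 (77.8%) were identical in the 3 genes, and Cbfa2t2 and Runx1t1 differed from Cbfa2t3 at 14 and 16 positions. How many reads the genes share in such stretches cannot be seen in gene-level TPM.

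Cbfa2t3, the gene named as deleted, was read in every library and did not separate the genotypes. The WT crypts measured 3.67, 6.69 and 4.52 TPM. The crypts labelled Mtg16-/- measured 4.62, 6.43 and 3.23 TPM. The highest library of each genotype was replicate 2, and the lowest and the second-highest value of all 6 were both from the mutant group, so the groups overlapped fully. The means were 4.96 ± 1.56 (SD, n = 3) and 4.76 ± 1.60 (SD, n = 3) TPM. The difference, mutant minus WT, was -0.06 on the log2(TPM + 1) scale (SE 0.27, 95% interval -0.69 to 0.58), with an adjusted p of 0.942 in limma, and its sign turned positive without WT replicate 2 (0.14) or without Mtg16-/- replicate 3 (0.15). Gene-level TPM adds reads of all exons and cannot show that 1 exon is missing, so it neither checks the labels nor measures functional transcript, and the mutant group is called by its label throughout. The p-values given here rest on these 6 mice. Exact permutation p-values use only the values compared, while limma p-values and intervals also draw on the spread of the other tested genes.

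Cbfa2t2, the member with the highest level, varied least. Its TPM was 12.34, 11.28 and 12.64 in WT crypts. It was 11.54, 12.95 and 12.56 in the libraries labelled Mtg16-/-. The groups overlapped, and the lowest and the highest of the 6 values differed by 1.15-fold. The means were 12.1 ± 0.715 and 12.35 ± 0.728 TPM (SD, n = 3 each). The difference was 0.03 on the log2 scale (SE 0.14, 95% interval -0.29 to 0.35, limma adjusted p 0.941), and it was at most 0.07 in size without any 1 library.

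Runx1t1 had the lowest level and the only groups in the family that did not overlap. Its TPM was 0.15, 0.29 and 0.35 in WT crypts. In the mutant it was 1.20, 1.08 and 1.11. Every mutant library was above every WT library, and the mutant libraries lay close together. The mean was 0.263 ± 0.103 TPM in WT and 1.13 ± 0.0624 TPM in the mutant (SD, n = 3 each), a ratio of means of 4.29. The difference was 0.76 on the log2(TPM + 1) scale (SE 0.13, 95% interval 0.44 to 1.07), a scale that understates the change of a gene this low. With a pseudocount of 0.1 in place of 1 it was 1.80 (adjusted p 0.225), and without WT replicate 1 it was 0.69 (adjusted p 0.312). The unadjusted p in limma was 0.000562 and the adjusted p over all tested genes was 0.180, which misses the threshold of 0.1, so the difference was not called. Weighting the libraries by their quality brought the adjusted p to 0.0767, under the threshold, at a log2 difference of 0.69. A block for the replicate number brought it to 0.0571, also under the threshold. Over all 10 alternatives that gave a value the adjusted p ran from 0.0571 to 0.225. Leaving out 1 mouse at a time gave 0.246 to 0.610. The exact two-sided permutation test over libraries gave 0.1, the smallest p that 3 against 3 allows.

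**Figure D1:**
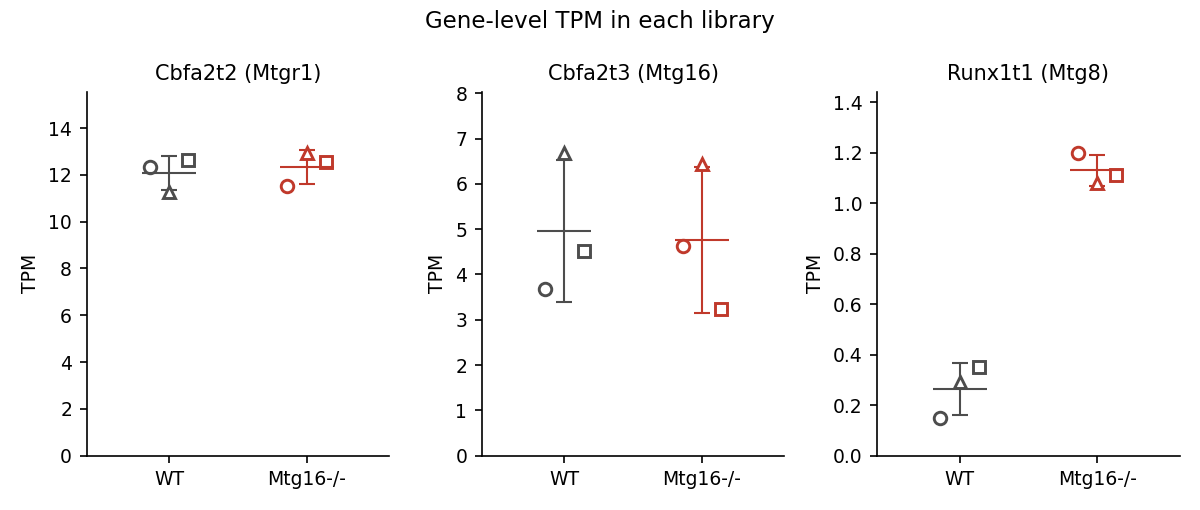
TPM of each family member (vertical axes, each from 0) in the WT (grey) and Mtg16-/- (red) libraries. Circles, triangles and squares are replicates 1, 2 and 3, and horizontal lines with bars are the mean ± SD of 3 libraries. The groups overlapped for Cbfa2t2 and Cbfa2t3, while the 3 mutant libraries of Runx1t1 sit between 1.08 and 1.20, above the WT libraries.

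Across the whole table, limma called 0 of 15045 genes at an adjusted p under 0.1 (0%), and the exact permutation test cannot go below 0.1 for any gene. The study itself, with DESeq2 as the authors' own test, reported genes that differed between the genotypes. The 0 calls belong to this fit of log2(TPM + 1) and do not mean that no gene changed. In the main fit the smallest adjusted p was 0.113. With a block for the replicate number, which the main fit leaves out, 266 genes were called higher and 645 lower. At an unadjusted p under 0.05 there were 2030 genes, of which 919 were higher and 1111 lower in the mutant, which is 13.5% of those tested (6.11% higher and 7.38% lower). Runx1t1 was the 1 member of 3 in that count, on the higher side. Groups failed to overlap with the mutant higher for 9.56% of the tested genes (19.9% in either direction), and Runx1t1 was again the 1 member of 3. Runx1t1 ranked 46 of the 15045 genes by p, and 222 genes were higher by at least as much. The median difference of all tested genes was -0.02.

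**Figure D2:**
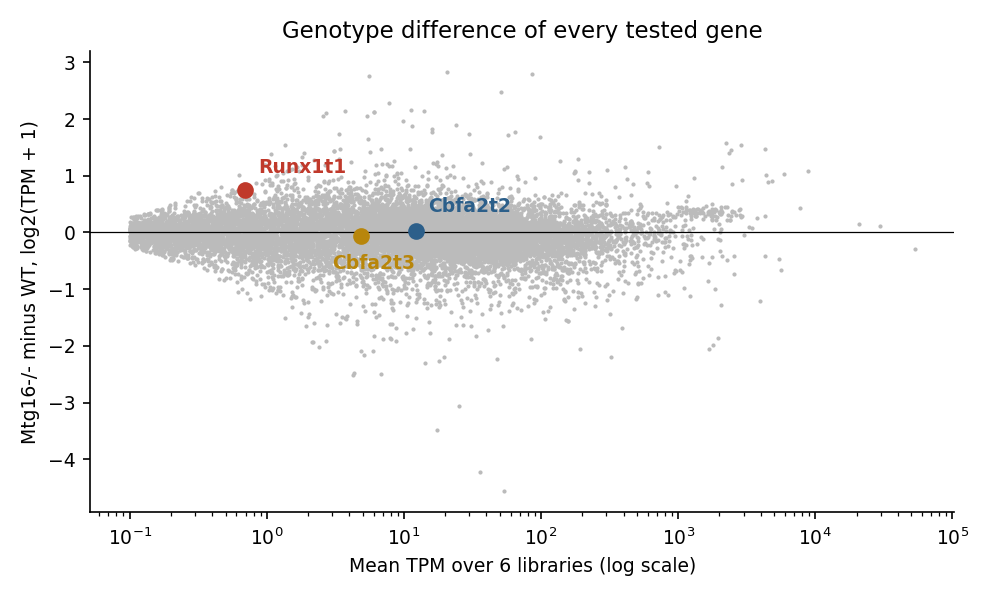
Difference between Mtg16-/- and WT on the log2(TPM + 1) scale (vertical axis) against the mean TPM of the 6 libraries (horizontal axis, log scale) for each of the 15045 tested genes (grey), with the family members marked. Runx1t1, at 0.76, lies in the upper part of the cloud, whereas Cbfa2t3, at -0.06, and Cbfa2t2, at 0.03, lie near 0.

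The order of the levels was the same in all 6 libraries, with Cbfa2t2 above Cbfa2t3 and Cbfa2t3 above Runx1t1. Within a library, the level of Cbfa2t2 exceeded that of Cbfa2t3 by 1.21 on the log2 scale on average (range 0.68 to 1.68). That of Cbfa2t3 exceeded that of Runx1t1 by 1.80 (range 1.00 to 2.58), or by 2.86 with a pseudocount of 0.1. Each of the 3 pairs gave an exact sign-flip permutation p of 0.0312, the smallest that 6 libraries allow. That value is reached whenever all 6 differences share a sign, with both genotypes pooled. It therefore bears on the order and not on the size of the distances. Ratios of the mean TPM are given as a description. Mean Cbfa2t2 was 45.9 times mean Runx1t1 in WT and 10.9 times in the mutant, and mean Cbfa2t3 was 18.8 times and 4.21 times mean Runx1t1. By contrast, mean Cbfa2t2 was 2.44 times mean Cbfa2t3 in WT and 2.59 times in the mutant.

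A difference in 1 member and not in another was tested as the difference itself, over 3 pairs. The level of Cbfa2t3 minus that of Runx1t1, in log2(TPM + 1), measured 2.02, 2.58 and 2.03 in WT and 1.35, 1.84 and 1.00 in the mutant. The groups did not overlap, and the distance was smaller in the mutant by a difference of -0.81, with an exact permutation p of 0.1. For Cbfa2t2 minus Runx1t1 the difference was -0.73, also without overlap and with an exact permutation p of 0.1. For Cbfa2t2 minus Cbfa2t3 it was 0.08 (exact permutation p 0.8). With a pseudocount of 0.1 the differences that involve Runx1t1 were -1.87 and -1.77, so their size depends on that choice. None of these tests can reach a p below 0.1 with 3 mice per group.

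As a share of the summed TPM of the family, Runx1t1 took 0.928%, 1.59% and 2.00% in the WT libraries. It took 6.91%, 5.28% and 6.57% in the mutant libraries, so the groups did not overlap. The means were 1.51% ± 0.540 and 6.25% ± 0.861 (SD, n = 3 each), 4.75 percentage points apart (exact permutation p 0.1). Cbfa2t3 took 28.4% ± 7.31 in WT and 25.7% ± 6.21 in the mutant (exact permutation p 0.7). Cbfa2t2 took 70.1% ± 7.51 and 68.0% ± 5.67 (exact permutation p 0.8). Both of these overlapped between the genotypes. The summed TPM of the 3 members was 16.16, 18.26 and 17.51 in WT and 17.36, 20.46 and 16.90 in the mutant. The groups overlapped.

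**Figure D3:**
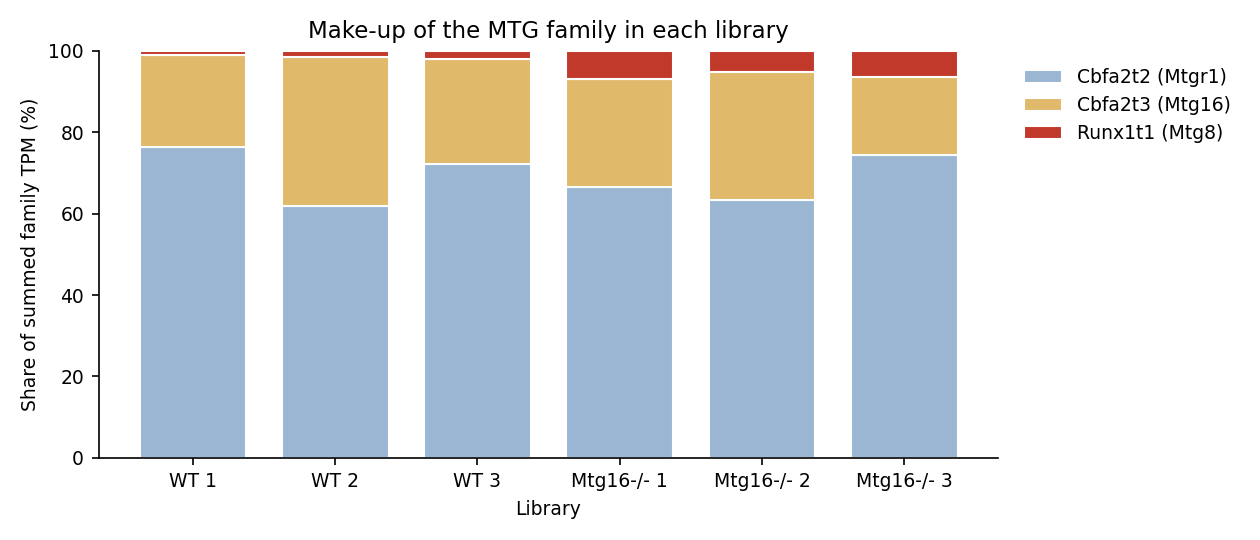
Share of the summed TPM of the 3 family members (vertical axis, percent) held by each member in every library (horizontal axis). The Runx1t1 segment runs from 0.928% to 2.00% in the WT libraries and from 5.28% to 6.91% in the Mtg16-/- libraries, and Cbfa2t2 is the largest segment in each.

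The spread among mice of 1 genotype differed between members. The coefficient of variation of TPM was 31.4% in WT and 33.7% in the mutant for Cbfa2t3. It was 5.91% and 5.90% for Cbfa2t2, and 39.0% and 5.53% for Runx1t1. Cbfa2t3 thus varied 2.07-fold between its lowest and highest library without regard to genotype. Over the 6 libraries, Pearson's r in log2(TPM + 1) was -0.286 between Cbfa2t3 and Cbfa2t2, -0.0318 between Cbfa2t3 and Runx1t1 and 0.163 between Cbfa2t2 and Runx1t1, so no pair of members moved closely together across these mice.

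The genes whose pattern was most like that of each member were ranked by Pearson's r over the same 6 libraries among genes with a mean of at least 1 TPM. The ranking ran over at least 12267 genes, and its values are given without a test. For Cbfa2t3 they were Clasp2 (r = 0.988), which stabilizes microtubule ends, Lst1 (0.981), Rapgef3 (0.975), a cyclic AMP-activated exchange factor, Rbbp8nl (0.974) and Fndc3b (0.973). All 5 were high in replicate 2 of both genotypes, as Cbfa2t3 was. For Cbfa2t2 they were Gen1 (0.994), a Holliday junction resolvase, Tstd2 (0.986), Anapc10 (0.977), a subunit of the anaphase-promoting complex, Nsrp1 (0.974), a splicing regulator, and Gm15501 (0.971). For Runx1t1 they were Gas6 (0.998), a ligand of TAM receptor kinases, Mettl27 (0.993), Prcp (0.992), a lysosomal carboxypeptidase, and Pxylp1 (0.992). Gas6 measured 44.47, 51.94 and 54.47 TPM in WT and 87.41, 84.49 and 86.93 TPM in the mutant. Prcp measured 9.51, 9.62 and 10.33 TPM in WT and 16.89, 16.53 and 16.55 TPM in the mutant. These 4 genes separated the genotypes without overlap, as Runx1t1 did, and their likeness to it within each genotype was not tested.

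The promoters of the members are shown because MTG proteins are brought to DNA by factors that read the E box, here searched as CANNTG, whose letters are in capitals. Each runs from 250 bases before to 50 bases after a RefSeq transcript start (GRCm38.p6), and 2 of the 3 members had entries, with 2 starts for Cbfa2t3. The upstream start of Cbfa2t3 lies in chr8:122699060-122699359, its downstream start in chr8:122678126-122678425 (both minus), and that of Cbfa2t2 in chr2:154436234-154436533 (plus).
Cbfa2t3 upstream: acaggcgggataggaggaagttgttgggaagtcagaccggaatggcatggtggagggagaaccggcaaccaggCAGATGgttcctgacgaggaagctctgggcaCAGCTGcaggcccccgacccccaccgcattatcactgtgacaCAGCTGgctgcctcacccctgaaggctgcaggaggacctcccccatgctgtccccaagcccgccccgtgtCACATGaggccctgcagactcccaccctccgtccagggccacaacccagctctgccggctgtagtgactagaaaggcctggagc
Cbfa2t3 downstream: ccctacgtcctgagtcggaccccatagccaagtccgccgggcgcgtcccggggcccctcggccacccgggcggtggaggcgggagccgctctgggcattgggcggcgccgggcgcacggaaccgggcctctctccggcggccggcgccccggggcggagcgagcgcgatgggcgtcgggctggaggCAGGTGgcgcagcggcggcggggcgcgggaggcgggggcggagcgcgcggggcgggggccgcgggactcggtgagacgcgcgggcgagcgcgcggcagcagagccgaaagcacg
Cbfa2t2: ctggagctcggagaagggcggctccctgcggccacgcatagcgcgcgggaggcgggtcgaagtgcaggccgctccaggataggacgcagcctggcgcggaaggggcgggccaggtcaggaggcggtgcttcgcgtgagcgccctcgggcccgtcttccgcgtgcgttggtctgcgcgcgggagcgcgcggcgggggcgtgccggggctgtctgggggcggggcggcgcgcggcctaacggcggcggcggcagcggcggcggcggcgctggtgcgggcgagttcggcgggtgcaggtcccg
The upstream window of Cbfa2t3 held 4 matches, of which 2 read CAGCTG, the downstream window held 1 match and that of Cbfa2t2 none. Among 32851 RefSeq promoters of this length, 72.3% held at least 1 CANNTG and 6.49% at least 4, while 623 held CAGCTG at least 2 times. The E box word is its own reverse complement, so both strands were covered. No window of these genes held GTGGGAA, the word read by the Notch effector RBPJ, on either strand, against 6.38% of all promoters. The GC content was 63.7% in the upstream Cbfa2t3 window, 81.7% in the downstream one and 79.0% in that of Cbfa2t2, against a median of 52.7% over all promoters. A match is a description of letters and no binding was measured here.

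The corepressor complexes with which MTG proteins work were measured next. Of 10 listed subunits, 10 were tested and 0 were called in either direction. At an unadjusted p under 0.05 in limma there were 0, against 13.5% of all tested genes. The median difference was 0.06 against -0.02 for all tested genes. Ncor1, the scaffold of the NCoR complex, had the lowest difference, at -0.29 (99.0 ± 15.3 TPM in WT, 80.7 ± 12.8 TPM in the mutant, SD, n = 3 each, limma adjusted p 0.458). The highest were Hdac2, a class I deacetylase, at 0.28 (58.4 ± 9.68 and 70.8 ± 11.5 TPM, adjusted p 0.489), and Tbl1x, a WD-repeat subunit of the NCoR complex, at 0.18 (adjusted p 0.553). The level of Hdac3, the deacetylase of the NCoR complex, was above that of every MTG member, with means of 88.2 TPM in WT and 92.0 TPM in the mutant. Gps2, another NCoR subunit, was the only one whose groups did not overlap, with the mutant lower (47.4 ± 1.33 and 42.3 ± 2.20 TPM, difference -0.16, adjusted p 0.514), where 10.3% of all tested genes showed that.

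Of 16 DNA-binding partners, 14 were tested, 0 were called, and 1 higher and 0 lower had an unadjusted p under 0.05, with a median difference of 0.02. That gene was Zbtb33, which encodes the methyl-CpG binder Kaiso. It measured 11.01, 7.87 and 9.99 TPM in WT and 12.58, 14.39 and 15.72 TPM in the mutant, without overlap (difference 0.53, SE 0.17, limma adjusted p 0.303). The next highest was Tcf4, an E protein, at 0.27 (adjusted p 0.552). The lowest were Bcl6, a POZ-domain repressor, at -0.36 (adjusted p 0.401) and Atoh1, the factor that specifies secretory progenitors, at -0.23. Atoh1 measured 19.12, 23.18 and 18.01 TPM in WT and 17.31, 18.16 and 15.18 TPM in the mutant, with overlapping groups (adjusted p 0.506). Tal1 and Prdm14 were at or near 0 in all libraries and were not tested. Groups did not overlap for 2 partners that were higher, Zbtb33 and Rbpj (0.21, limma adjusted p 0.492), and for 1 that was lower, Bcl6. Over all tested genes the shares were 9.56% higher and 10.3% lower. At an unadjusted p under 0.05 in limma they were 6.11% and 7.38%.

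Of 13 listed genes of the Notch pathway, 12 were tested and 0 were called, with 2 higher and 1 lower at an unadjusted p under 0.05 and a median difference of 0.08. The lower gene was Hes5, a transcriptional repressor induced by Notch, with 0.36, 1.17 and 0.64 TPM in WT and 0, 0.17 and 0.15 TPM in the mutant (difference -0.62, SE 0.19, limma adjusted p 0.293). The higher genes were Hes1, the main Notch target of the crypt, and Dll3, a ligand-like protein of the Delta family. Hes1 measured 37.59, 48.20 and 52.55 TPM in WT and 51.23, 64.90 and 71.92 TPM in the mutant, which overlapped (difference 0.43, SE 0.17, adjusted p 0.340). Dll3, at a level like that of Runx1t1, measured 0.20, 0.34 and 0.49 TPM in WT and 0.66, 0.89 and 0.76 TPM in the mutant, which did not overlap (difference 0.40, SE 0.14, adjusted p 0.319). Hes1 and Hes5, both targets of the same pathway, thus had differences of opposite sign and neither was called. Dll4, a Notch ligand, was second lowest at -0.28 (adjusted p 0.531), and Hey1 was too low to be tested. Groups did not overlap for 2 genes of this list that were higher, Dll3 and Rbpj, and for 1 that was lower, Hes5. Over all tested genes the shares were 9.56% and 10.3%. At an unadjusted p under 0.05 in limma they were 6.11% higher and 7.38% lower.

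All 4 RUNX factors were tested and 0 were called, with a median difference of -0.08 against -0.02 for all tested genes. At an unadjusted p under 0.05 in limma there were 1 higher and 0 lower, against 6.11% and 7.38% of all tested genes. The higher gene was Cbfb, the common partner subunit, at 18.89, 25.48 and 24.49 TPM in WT and 26.68, 30.92 and 37.99 TPM in the mutant. Its groups did not overlap (difference 0.45, limma adjusted p 0.336), where 9.56% of all tested genes separated as higher. Runx1, to which Mtg8 is fused in leukaemia, measured 2.04 ± 0.0416 TPM in WT and 2.06 ± 0.147 TPM in the mutant (difference 0.01, adjusted p 0.981). Runx2 had a difference of -0.17 (adjusted p 0.733) and Runx3, which lymphocytes also express, one of -0.51 (adjusted p 0.546).

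**Figure D4:**
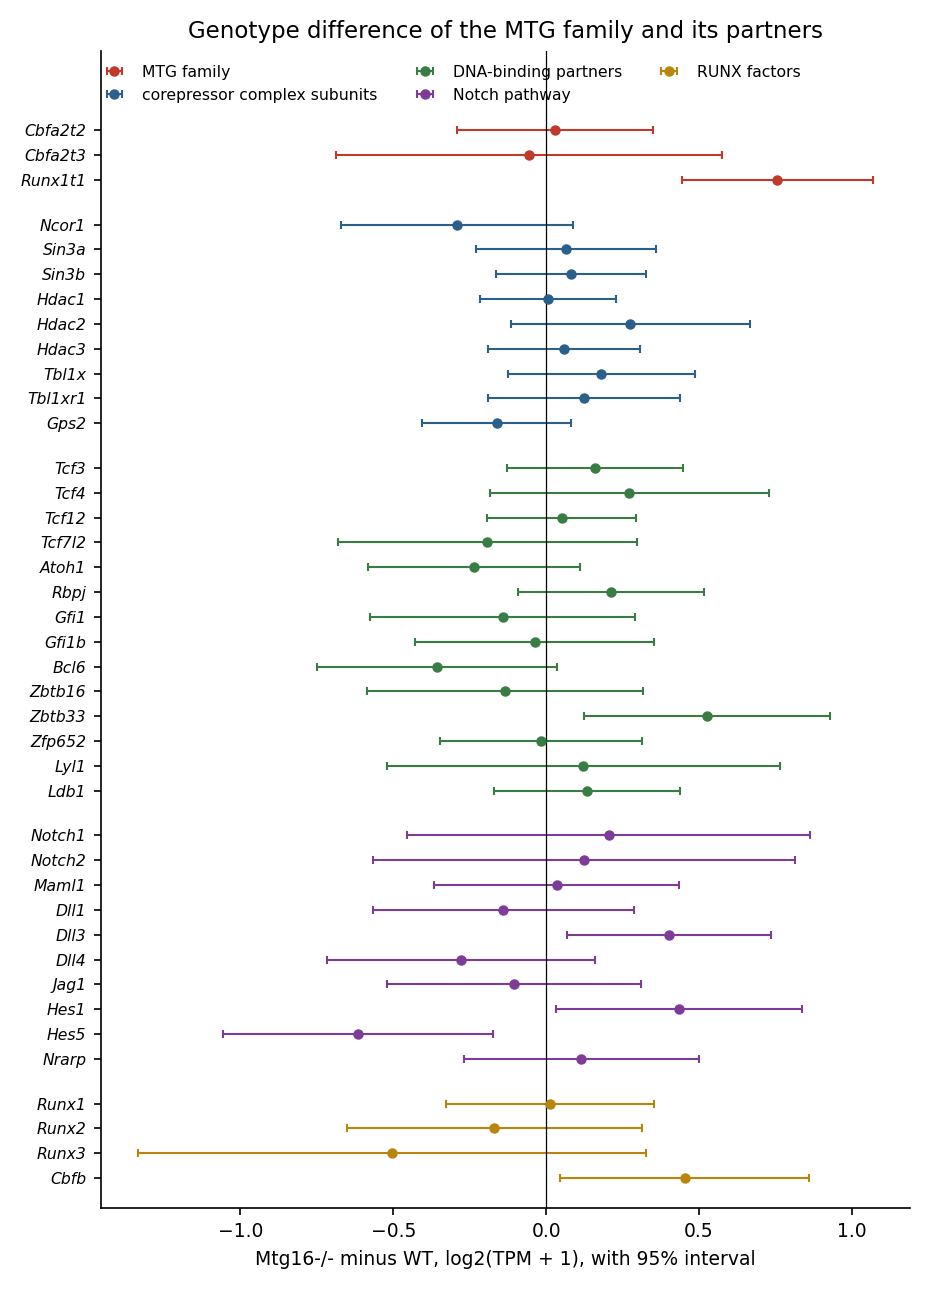
Difference between Mtg16-/- and WT on the log2(TPM + 1) scale (horizontal axis) with its 95% interval for the family members and the genes of the partner lists (vertical axis, 1 tested subunit not drawn). Runx1t1 stands at 0.76, and the partner genes run from -0.62 (Hes5) to 0.53 (Zbtb33), with most intervals spanning 0.

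The libraries were mainly epithelial by their markers, with leukocyte transcripts also present, and marker lists of some epithelial cell types separated with the genotype. Summed TPM of 8 epithelial markers, which do not tell crypt from villus, was 11433 to 13236 over the 6 libraries. The defining markers Sox10 of glia and Lum of fibroblasts were listed at 0 in all 6 libraries. The summed fibroblast list ran from 58.2 to 131 TPM in WT and 47.8 to 72.1 TPM in the mutant, of which Fbln1 alone made up 42.8 to 116 and 33.1 to 52.3 TPM. Fbln1 had a difference of -0.75, but the other 7 of the 8 tested fibroblast genes had positive differences, and the median was 0.18. The smooth muscle and pericyte sum ran from 3.55 to 8.22 and 4.14 to 4.94 TPM, with 4 positive and 4 negative differences and a median of -0.11. In that list Acta2, the actin of smooth muscle and myofibroblasts, separated with the mutant higher, at 0.43, 0.28 and 0.21 TPM in WT and 0.67, 0.83 and 0.49 TPM in the mutant (difference 0.35, limma adjusted p 0.357). Pdgfrb separated with the mutant lower (difference -0.66, adjusted p 0.337). Of all tested genes, 9.56% separated as higher and 10.3% as lower. The endothelial sum ran from 4.09 to 6.23 and 2.72 to 5.35 TPM (median of 2 tested genes -0.31). The glial sum, almost wholly Erbb3, ran from 120 to 171.5 and 103 to 194 TPM (median of 2 tested genes -0.08). The leukocyte sum ran from 173 to 464 TPM in WT, with the highest in WT replicate 1, and from 91.1 to 252 TPM in the mutant, and 11 of 12 genes had negative differences (median -0.44). The groups overlapped for each of these 5 sums, and their part in the difference of Runx1t1 was not tested.

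Several lists did separate the genotypes as Runx1t1 did. For the counts below, 6.11% of all tested genes were higher and 7.38% lower at an unadjusted p under 0.05 in limma. The median difference of all tested genes was -0.02. The enteroendocrine sum was 249 to 312 TPM in WT and 411 to 444 TPM in the mutant. All 12 enteroendocrine genes had positive differences (median 0.56), 8 of them at an unadjusted p under 0.05 and 0 called, among them Gcg, which encodes proglucagon (1.15, adjusted p 0.113), and Chgb, a granin (0.50, adjusted p 0.238). The sum of the enteric neuron list, of which 5 of 8 genes were tested, was 1.82 to 2.36 TPM in WT and 3.34 to 4.14 TPM in the mutant. All 5 tested genes of that list had positive differences (median 0.41) and 0 were called. Snap25 and Uchl1, its 2 genes with an unadjusted p under 0.05 in limma, are also made by endocrine cells. Uchl1 was listed at 0 in all 3 WT libraries and at 0.29, 0.58 and 0.16 TPM in the mutant. It passed the filter only through the mutant group, so its p lends no support. The Paneth sum was 10350.2 to 24641 TPM in WT and 29692 to 38743 TPM in the mutant (median difference 1.05, 7 of 8 genes higher at an unadjusted p under 0.05). The sum of crypt base stem cell markers was 799 to 1379 TPM in WT and 1490.3 to 1941 TPM in the mutant (median difference 0.53, 5 of 8 genes higher at an unadjusted p under 0.05). The enterocyte sum overlapped, at 12549 to 36214 and 6598 to 12617 TPM (median difference -1.15, 7 of 10 genes lower at an unadjusted p under 0.05). Its highest value was WT replicate 1, against 12549 and 15511 TPM in the other WT libraries, and the ratio of mean sums, mutant over WT, was 0.408 with that library and 0.623 without it. The sums also overlapped for the goblet (-0.42), tuft (-0.49) and cycling cell (0.14) lists, with median differences in parentheses. The part that these cell types have in the difference of Runx1t1 was not tested, and in bulk RNA fewer cells of a type and less RNA per cell cannot be told apart.

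**Figure D5:**
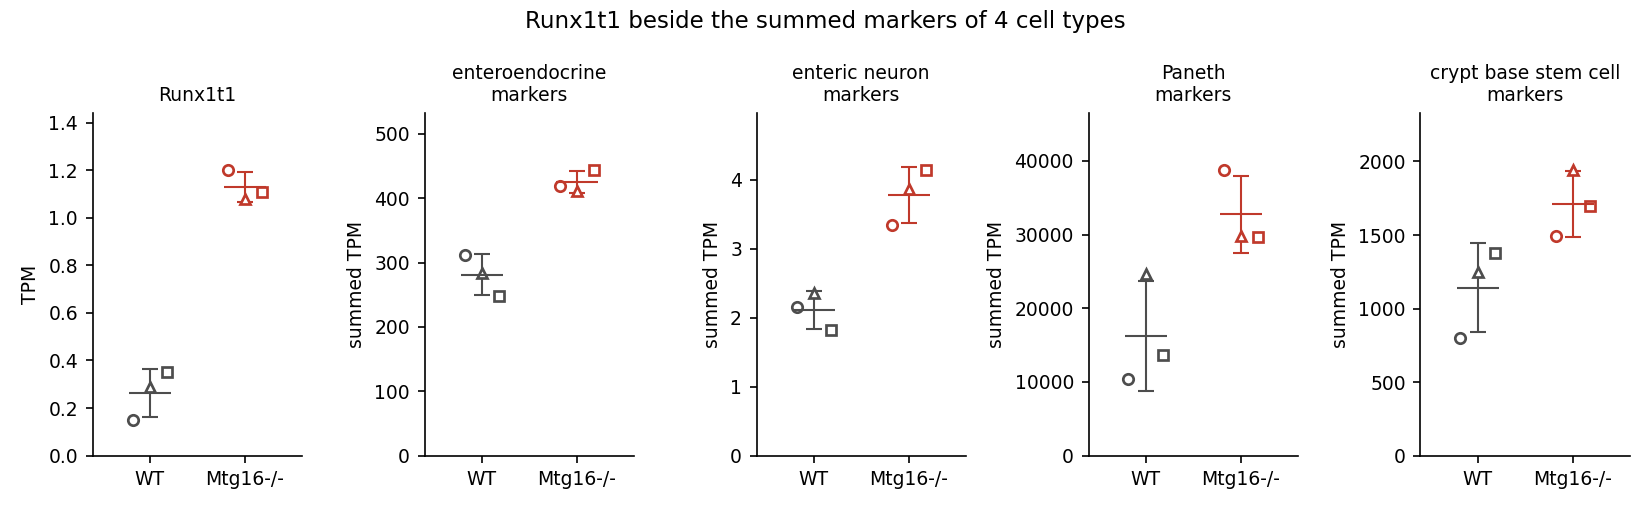
TPM of Runx1t1 and the summed TPM of 4 marker lists (vertical axes, each from 0) in the WT (grey) and Mtg16-/- (red) libraries, with circles, triangles and squares for replicates 1, 2 and 3 and the mean ± SD of 3 libraries. In each panel the 3 mutant libraries lie above the 3 WT libraries.

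The genes next to the members that are given here had no called difference. Beside Runx1t1, Triqk at 761 kb differed by 0.35 (limma adjusted p 0.464) and Otud6b at 914 kb by -0.04 (adjusted p 0.921). Beside Cbfa2t2, Necab3 at 5.04 kb differed by 0.04 (adjusted p 0.932). Beside Cbfa2t3, Pabpn1l at 2.40 kb differed by 0.04 (adjusted p 0.942), with both groups overlapping. On its other side, A530010L16Rik lies 61.7 kb away at chr8:122761010-122762761. It was listed at 0 in all 3 WT libraries and at 0.46, 0.92 and 0.52 TPM in the mutant ones. The difference was 0.70 (SE 0.15, limma adjusted p 0.222). This gene passed the filter only through the mutant group, so its p lends no support. Of all tested genes, 9.56% separated with the mutant higher. The annotated genes Gm10612, inside Cbfa2t3, and Gm18767, inside Cbfa2t2, overlap these members, have no values of their own here, and their reads cannot be told apart from those of the members if strand was not used in counting.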

How the data were processed

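The authors deposited 1 table of TPM values per gene symbol and library, rounded to 2 decimals. According to the submitters' processing notes, reads were handled with cutadapt 1.9.1, STAR 2.5.2a and RSEM 1.3.0 against mm10, and DESeq2 1.12.3 was the authors' own test. RNA was depleted of ribosomal RNA. TPM keeps no read number, so the depth is unknown and no interval that needs it is given, and whether strand was used in counting is not given in the sources used here. Here, TPM became log2(TPM + 1), and 15045 genes averaging 0.1 TPM or more over the libraries were tested with limma 3.58.1 (lmFit and eBayes with an intensity trend, R 4.3.3) without covariates, with Benjamini-Hochberg adjustment and calls at an adjusted p under 0.1. The filter was 0.1 and not 1 because Runx1t1 averages 0.697 TPM. Single values were compared by two-sided exact permutation over libraries. The genes named in the text are the members, each partner list's 2 largest differences in each direction, the 5 genes most like each member and its neighbouring or overlapping genes, while others were named after their values were seen and a few that the rule picks are not reported here. The partner lists (corepressor complex subunits, DNA-binding partners, Notch pathway, RUNX factors) and the marker lists were compiled from general knowledge, and the members and lists were chosen with earlier results of these data known. The fit was tested on simulated data, with changes larger than that of Runx1t1 in genes of higher level. That test therefore does not bear on Runx1t1. Positions and sequences came from GENCODE vM21 (GRCm38) and RefSeq (GRCm38.p6), aligned with Biopython 1.88.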

Additional observations from a re-analysis of the deposited data

How the results depend on the processing

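Runx1t1 was higher in the libraries labelled Mtg16-/- under all 10 alternatives that gave it a value, at 0.69 to 1.80 on the log2 scale with adjusted p from 0.0571 to 0.225, and a mean TPM of at least 1 gave no value because the gene falls below it. No filter on low values, no intensity trend, robust moderation, the replicate block and the threshold of 0.05 keep the difference at 0.76 by construction. Their direction therefore adds nothing. Runx1t1 passed the threshold with array weights (0.69, adjusted p 0.0767) and with the replicate block. Without 1 mouse it stayed between 0.69 and 0.81, with adjusted p from 0.246 to 0.610. Cbfa2t3 changed sign with array weights (0.053) and ran from -0.26 to 0.15 without 1 mouse, turning positive without WT replicate 2 (0.14) or Mtg16-/- replicate 3 (0.15). Cbfa2t2 ran from -0.016 to 0.073 without 1 mouse. Without 1 mouse the level differences ran from 1.11 to 1.31 for Cbfa2t2 minus Cbfa2t3, 1.65 to 1.96 for Cbfa2t3 minus Runx1t1 and 2.91 to 3.11 for Cbfa2t2 minus Runx1t1, where 5 libraries cannot go below an exact permutation p of 0.0625. The genotype difference of Cbfa2t2 minus Cbfa2t3 ran from -0.16 to 0.26, and the shares moved by -5.52 to 1.46 points (Cbfa2t3), -6.24 to 1.05 points (Cbfa2t2) and 4.42 to 5.24 points (Runx1t1).

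Across all genes, calls were 2 higher and 2 lower with a mean TPM of at least 1 and the same counts with robust moderation, 96 higher and 107 lower with array weights, and 0 to 3 higher and 0 to 10 lower without 1 mouse, the most without WT replicate 1. The cause of these changes was not tested. The replicate numbers of the 2 genotypes belong to different mice. For equal numbers in both genotypes, the deviations from the group mean correlated at 0.429, 0.0753 and 0.237. Libraries 1 and 3 but not 2 matched their own number best. This check cannot decide whether libraries of equal number were handled together. The main fit used no block, and its calls depend on that choice. With the replicate block, calls were 266 higher and 645 lower, Runx1t1 had an adjusted p of 0.0571 at 0.76, and 2 Notch genes were called, Hes1 (adjusted p 0.0792) and Hes5 (0.0973). The ratios of marker sums without WT replicate 1 were chosen after seeing the data. The unknown depth limits every value of Runx1t1, which lies near 1 TPM or below.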
